A study of Mus musculus with 12 samples.

Results

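The genes with higher counts in the nicotine libraries of Sst-neurons described here are 5 entries of the deposited table: Ehd1, Cxadr, Igsf11, Parp14 and Serpind1. They were chosen by their counts, because both Sst+Nic libraries held more counts than every Sst library, so their rise in Sst-neurons is the criterion of choice and is given as a description with no test. They are 5 of 16468 entries with a count in at least 1 library. Of 6689 entries tested in Sst-neurons, 951 (14.2%) met the same criterion, which makes membership a common property in this table. Among the 488 tested entries inside stretches of chromosome that passed a check of names, 41 (8.40%) did so. The 5 genes are among these 41, and the check was made per stretch, not per name. The values from the Thy1 groups played no part in the choice, and tests of the genes are given only for nicotine in Thy1-neurons, for Ehd1 and Cxadr. Parp14 had no count there, and Igsf11 and Serpind1 passed the filter on low counts only through the Thy1+Nic libraries in which they were high.

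The 5 genes belong to different cell functions. Ehd1 is an ATPase that forms tubules on endosomal membranes and returns internalised receptors to the cell surface. Cxadr, the coxsackievirus and adenovirus receptor, and Igsf11 are related adhesion molecules with immunoglobulin domains that bind between neighbouring cells, and Igsf11 also binds scaffold proteins at excitatory synapses. Parp14 is an interferon-induced enzyme that attaches single ADP-ribose units to proteins. Serpind1, heparin cofactor II, is an inhibitor of the protease thrombin and is known mainly as a plasma protein made by the liver. Nicotine opens nicotinic acetylcholine receptors, ion channels for cations, and cortical Sst interneurons and layer V pyramidal neurons differ in the receptors they carry.

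Sst-neurons came from the GIN line on the FVB background, in which a Gad promoter drives enhanced green fluorescent protein in a subset of Sst interneurons, and Thy1-neurons came from the YFPH line on the B6 background, in which the Thy1 promoter labels pyramidal cells of layer V with yellow fluorescent protein. All mice were males of 5 to 7 weeks and 20 g that carried an osmotic pump under the skin for 14 days, filled with saline (Sst and Thy1 groups) or with nicotine hydrogen tartrate at 48 mg/kg/d (Sst+Nic and Thy1+Nic groups). Each library was made from 30 fluorescent cells of 1 mouse, collected by hand in aspirations of 10 cells, and 10 of the 12 libraries were analysed here: Sst replicates 1, 2 and 3, Sst+Nic replicates 2 and 3, Thy1 replicates 2 and 3, and Thy1+Nic replicates 1, 2 and 3. Sst+Nic replicate 1 and Thy1 replicate 1 were not analysed here. Cell type cannot be told apart from mouse line and strain, and p-values measure the spread between these mice.

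The libraries held 2915738 to 4878326 counted fragments, and levels are given as CPM, counts scaled to a library total of 1000000 fragments. A count of 0 allows between 0.615 and 1.03 CPM, taken as up to 3 counts, and such limits cover counting error only. Many entry names outside a few stretches of chromosomes 7, 8, 16 and 19 carried implausible counts (Actb had 4, Snap25 14 and Gad1 4 fragments summed over 10 libraries). Genes are therefore named only from 891 entries inside these stretches. A stretch was kept by comparing some of its genes with the study's Sst values, 35 on chromosome 16 and 5 on chromosome 19. Most single names were thus not checked. Of 1307 genes compared in the whole table, 980 were at 0.05 or less of the study's value. Ehd1, Cxadr, Igsf11 and Serpind1 stood at 1.16, 0.849, 0.869 and 0.690 times their value, and Parp14 could not be compared. Sst itself lay at 61221, 126088 and 91130 CPM in Sst replicates 1, 2 and 3, at 53779 and 64640 in Sst+Nic replicates 2 and 3, and between 1.15 and 49.2 CPM in 4 of the 5 libraries of Thy1-neurons. Its mean was 92813 CPM in Sst and 59209 in Sst+Nic, the groups overlapped, and the part of this difference in the results was not tested. Thy1 replicate 3 stood apart with 3795 CPM of Sst, and the tests in Thy1-neurons are also given without this library. The pyramidal markers could not be read, since their entries were not among those checked. The vascular markers Cldn5 and Adamts1 (2 of 2 listed markers) summed to 16.2 to 92.1 CPM in Sst, 12.3 to 172 in Sst+Nic, 7.41 to 33.2 in Thy1 and 30.3 to 119 in Thy1+Nic. The microglial markers Hcls1, Cd86 and Itgb5 (3 of 3) summed to 0 to 84.7, 0 to 16.8, 0 to 0.275 and 0 to 11.5 CPM. Adamts1 was at 12.3 CPM in Sst+Nic replicate 2 and at 159 in Sst+Nic replicate 3, against 16.2 to 56.4 in Sst, and Cldn5 was at 0 and 13.1 against 0 to 35.7. The mitochondrially encoded genes took 16.3% and 19.8% of the fragments in Sst+Nic replicates 2 and 3, below the 21.2% to 22.1% of the Sst libraries, and 31.4% to 38.5% in Thy1-neurons, where the groups overlapped. The part of other cells and of the mitochondrial share in the results was not tested. With the mitochondrially encoded genes left out, the fitted log2 fold changes in Sst-neurons were 2.21 for Ehd1, 1.01 for Cxadr and 4.22 for Igsf11. The fits were scaled on the bulk of entries, so leaving out a few could hardly move them. This refit is therefore no test of the mitochondrial share.

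Of the genes, 4 lie on chromosome 16 of GRCm38 and Ehd1 lies on chromosome 19. Upstream sequence was at hand for Serpind1 and Igsf11, the pair whose saline Sst level was at or near 0 and which also had counts in Thy1+Nic. The 250 bases before each transcript start are shown on the plus strand, 5′ to 3′, with every CG dinucleotide in capitals (RefSeq, GRCm38.p6), so that the contrast between the pair can be read directly.

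Igsf11, chr16:38902095-38902344: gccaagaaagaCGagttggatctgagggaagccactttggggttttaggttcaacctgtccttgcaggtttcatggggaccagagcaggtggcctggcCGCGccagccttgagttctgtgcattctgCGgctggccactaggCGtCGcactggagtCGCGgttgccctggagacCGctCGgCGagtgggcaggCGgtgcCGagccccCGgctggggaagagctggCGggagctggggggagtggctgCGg
Serpind1, chr16:17331121-17331370: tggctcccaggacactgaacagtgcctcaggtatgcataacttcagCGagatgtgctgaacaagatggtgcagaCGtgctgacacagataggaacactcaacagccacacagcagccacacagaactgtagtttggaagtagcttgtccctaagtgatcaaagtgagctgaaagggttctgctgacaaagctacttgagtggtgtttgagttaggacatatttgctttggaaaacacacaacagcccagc

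The Igsf11 window held 16 CG dinucleotides and 65.6% G and C, and 74.6% of 32851 mouse windows of this length held fewer. The Serpind1 window held 2 CG dinucleotides and 48.0% G and C, and 18.8% of windows held fewer. The median window held 6. From 250 bases before to 50 bases after the start, both strands were searched for 4 motifs: the cyclic AMP response element TGACGTCA (in 1.79% of all promoters), the AP-1 site TGANTCA (7.81%), the core of the interferon-stimulated response element (3.44%) and the consensus kappaB site (0.155%). The windows of Igsf11 and Serpind1 held 0 matches to these letters, which says nothing about the factors themselves. The start used for Igsf11 (position 38902345) lies inside the span of the gene in GENCODE, downstream of its first annotated base.

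Ehd1, the endosomal recycling ATPase, was the gene whose nicotine libraries stood above the saline libraries in both cell types. It spans chr19:6276725-6300096 on the plus strand, with 3705 exonic bases. In Sst it had 42, 36 and 19 counts in replicates 1, 2 and 3, which is 10.4, 9.18 and 5.13 CPM. In Sst+Nic it had 128 and 218 counts in replicates 2 and 3, or 43.9 and 44.7 CPM, so that the lower nicotine library held 3.05 times the counts of the highest saline library. In Thy1 it had 29 and 19 counts (8.31 and 5.22 CPM) in replicates 2 and 3, and in Thy1+Nic it had 75, 83 and 101 counts (21.6, 19.6 and 29.8 CPM) in replicates 1, 2 and 3. In both cell types all nicotine libraries were above all saline libraries, and the order in Sst-neurons was the criterion of choice. By CPM, this joint order held for 40 of 5105 entries tested in both cell types (0.784%). Among the 449 of these inside the checked stretches it held for 4 (0.891%). The means were 8.25 ± 2.78 CPM in Sst (SD, n = 3), 44.3 ± 0.557 in Sst+Nic (n = 2), 6.76 ± 2.19 in Thy1 (n = 2) and 23.7 ± 5.37 in Thy1+Nic (n = 3).

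The mean CPM of Ehd1 was thus 5.37 times higher in Sst+Nic than in Sst and 3.50 times higher in Thy1+Nic than in Thy1. In TMM-scaled CPM, which rescale the library totals, the means were 7.82 ± 2.61 in Sst and 36.3 ± 5.19 in Sst+Nic. They were 7.10 ± 1.73 in Thy1 and 27.2 ± 3.53 in Thy1+Nic. In Thy1-neurons, edgeR's quasi-likelihood test gave a log2 fold change of 1.91 ± 0.74 (SE), with an unadjusted p = 0.0328 and a Benjamini-Hochberg adjusted p = 1.00 over 6048 entries, and this difference was not called. Of those entries, 0 (0%) were called, which took an adjusted p under 0.05 and a log2 change of more than 1 in either direction, and 264 (4.37%) had an unadjusted p under 0.05. DESeq2 called 14 entries and limma voom 0 in the same comparison, none of which was Ehd1. Without Thy1 replicate 3 the log2 fold change of Ehd1 was 1.70 (edgeR adjusted p = 0.914), and over 14 alternatives it stayed between 1.70 and 2.18 with adjusted p-values from 0.532 to 1. By counts, every Thy1+Nic library was above every Thy1 library for 508 of 6048 entries (8.40%), and of the 4 members with counts there 1, Ehd1, showed this order.

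**Figure D1:**
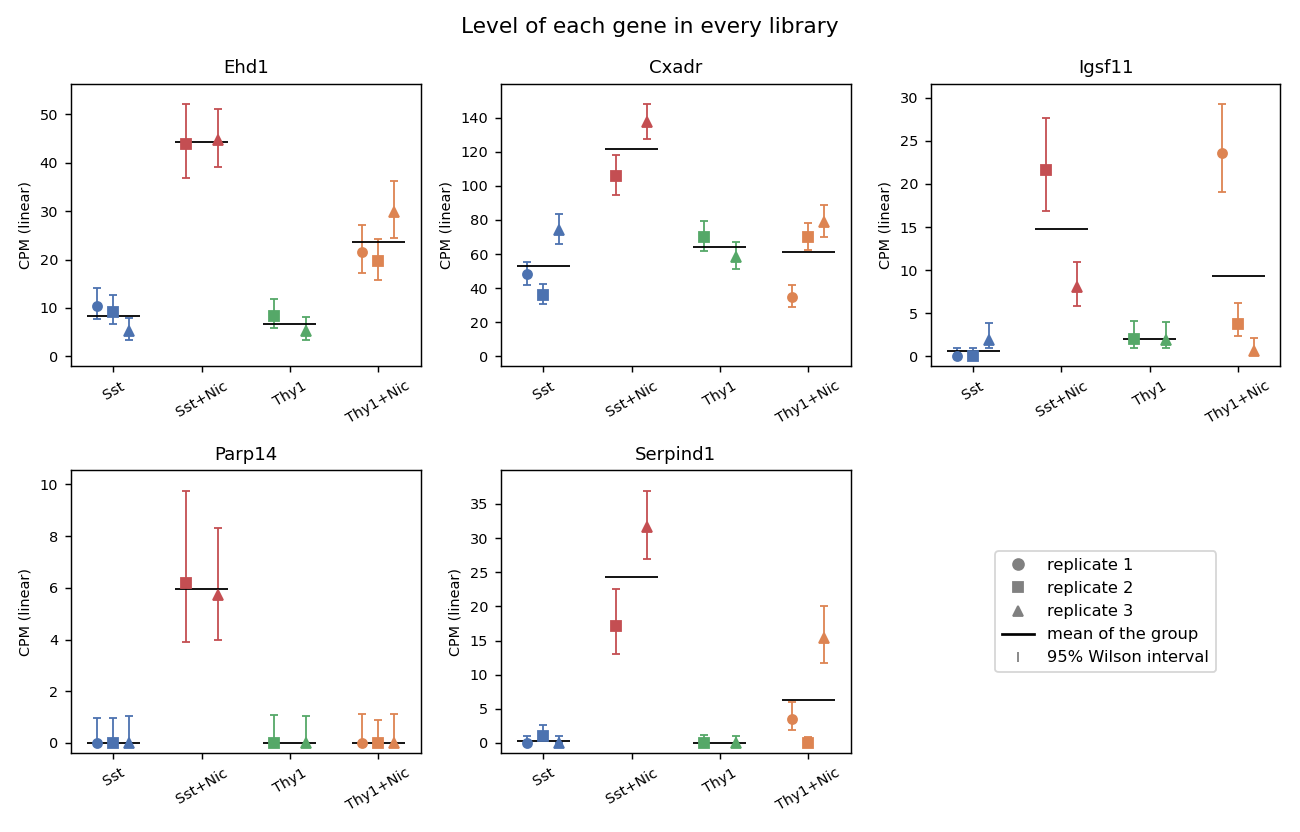
Level of each of the 5 genes in CPM (linear axis, a separate scale per gene) in the 3 Sst, 2 Sst+Nic, 2 Thy1 and 3 Thy1+Nic libraries; symbols mark the replicate number, bars the 95% Wilson interval of counting error and black lines the group mean. Ehd1 is higher in the nicotine libraries of both cell types, Cxadr and Parp14 are higher in Sst+Nic alone, and the Thy1+Nic libraries of Igsf11 and Serpind1 are spread from 0.589 to 23.6 and from 0 to 15.3 CPM.

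Cxadr, an adhesion molecule of tight junctions and synapses, had the highest mean of the 5 per exonic length in every group and was closest to the edge of the criterion as a ratio of counts. It spans chr16:78301489-78359774 on the plus strand, with 7400 exonic bases. It had 193, 142 and 274 counts in Sst (48.0, 36.2 and 73.9 CPM) and 308 and 670 counts in Sst+Nic (106 and 137 CPM). The lower nicotine library held 1.12 times the counts of the highest saline library, while among position-checked entries Gm4737 (104 against 104) and Ncam2 (416 against 418) fell just outside. In Thy1 the counts were 245 and 213 (70.2 and 58.5 CPM), and in Thy1+Nic they were 121, 295 and 267 (34.8, 69.7 and 78.7 CPM). The Thy1 and Thy1+Nic libraries overlapped.

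The mean of Cxadr was 52.7 ± 19.3 CPM in Sst and 121 ± 22.4 in Sst+Nic, a ratio of 2.30, and was 64.3 ± 8.28 in Thy1 and 61.1 ± 23.2 in Thy1+Nic, a ratio of 0.949. In Thy1-neurons the log2 fold change was 0.03 ± 0.46 (SE; edgeR adjusted p = 1.00), and it was 0.01 without Thy1 replicate 3 (edgeR adjusted p = 1.00). Its sign depended on the normalization and on the libraries used. In GENCODE, Cxadr shares 695 exonic bases (9.39% of its own) with Btg3, an opposite-strand gene of the BTG/Tob family of antiproliferative proteins. In RefSeq, Btg3 lies 0.075 kb beyond Cxadr. The annotation of counting is not given, and where exons are shared, reads without strand cannot be told apart. Btg3 had 2.49, 12.0 and 0.540 CPM in Sst, 4.80 and 23.6 in Sst+Nic, 39.5 and 60.7 in Thy1, and 54.7, 29.3 and 47.1 in Thy1+Nic. Btg3 was thus lower in the Sst-neuron libraries than in the Thy1-neuron libraries, and its Sst and Sst+Nic libraries overlapped.

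Igsf11, the other adhesion molecule, was high in both Sst+Nic libraries and in 1 of 3 Thy1+Nic libraries. It spans chr16:38892671-39027159 on the plus strand, with 4493 exonic bases. It had 0, 0 and 7 counts in Sst (0, 0 and 1.89 CPM) and 63 and 39 counts in Sst+Nic (21.6 and 7.99 CPM). In Thy1 it had 7 counts in each library (2.01 and 1.92 CPM), and in Thy1+Nic it had 82, 16 and 2 counts (23.6, 3.78 and 0.589 CPM). Thy1+Nic replicate 1 therefore reached the level of the higher Sst+Nic library, whereas Thy1+Nic replicate 3 was below both Thy1 libraries.

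The mean of Igsf11 was 0.630 ± 1.09 CPM in Sst and 14.8 ± 9.63 in Sst+Nic, a ratio of 23.5 whose denominator rests on the 7 counts of Sst replicate 3. It was 1.96 ± 0.059 CPM in Thy1 and 9.33 ± 12.5 in Thy1+Nic, a ratio of 4.75. The fitted log2 fold change in Thy1-neurons, given with no test, was 2.37 ± 1.73 (SE), 2.45 without Thy1 replicate 3 and 0.34 without Thy1+Nic replicate 1. With the replicate number as a block it was -0.19, the opposite sign.

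Parp14, the interferon-induced ADP-ribosyltransferase, was seen in Sst+Nic alone among the 10 libraries. It spans chr16:35832874-35871544 on the minus strand, with 9306 exonic bases. It had 18 and 28 counts in Sst+Nic replicates 2 and 3, which is 6.17 CPM (95% Wilson interval 3.91 to 9.76) and 5.74 CPM (3.97 to 8.30). It had 0 counts in all 3 Sst, both Thy1 and all 3 Thy1+Nic libraries, with upper Wilson limits between 0.908 and 1.13 CPM per library. The pooled level in Sst+Nic was 22.9 times a floor of 3 counts over the Sst group, and 21.8 times that floor over Thy1+Nic. These ratios leave out the counting error of Sst+Nic and the spread between mice, so they are not lower bounds. Nicotine could not be tested for Parp14 in Thy1-neurons, where every count was 0, and no fitted difference between cell types is given, since 3 of 4 groups were at 0.

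Serpind1, the thrombin inhibitor, was nearly absent from both saline groups and was seen in 4 of 5 nicotine libraries. It spans chr16:17331371-17343575 on the plus strand, with 2191 exonic bases. It had 0, 4 and 0 counts in Sst (0, 1.02 and 0 CPM) and 50 and 154 counts in Sst+Nic (17.1 and 31.6 CPM). In Thy1 both libraries had 0 counts, and in Thy1+Nic the counts were 12, 0 and 52 (3.46, 0 and 15.3 CPM). Thy1+Nic replicate 2 was thus at the level of the Thy1 libraries, and the Thy1 and Thy1+Nic libraries overlapped at 0.

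The mean of Serpind1 was 0.340 ± 0.589 CPM in Sst and 24.4 ± 10.2 in Sst+Nic, a ratio of 71.6 whose denominator rests on the 4 counts of Sst replicate 2. In Thy1+Nic the mean was 6.26 ± 8.03 CPM, and the pooled level was 13.7 times a floor of 3 counts over the Thy1 group. This ratio leaves out the counting error of Thy1+Nic and the spread between mice. Of the 64 counts in Thy1+Nic, 52 came from replicate 3. Without that library the ratio was 3.70, and without replicate 2, which was at 0, it was 22.2. No fitted fold change or test is given because Thy1 was at 0. Serpind1 lies inside Pi4ka, a phosphatidylinositol kinase gene on the opposite strand, with which it shares 0 exonic bases. Pi4ka had means of 375 ± 80.8 CPM in Sst, 391 ± 118 in Sst+Nic, 369 ± 86.8 in Thy1 and 396 ± 76.0 in Thy1+Nic, and its libraries overlapped between all groups.

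**Figure D2:**
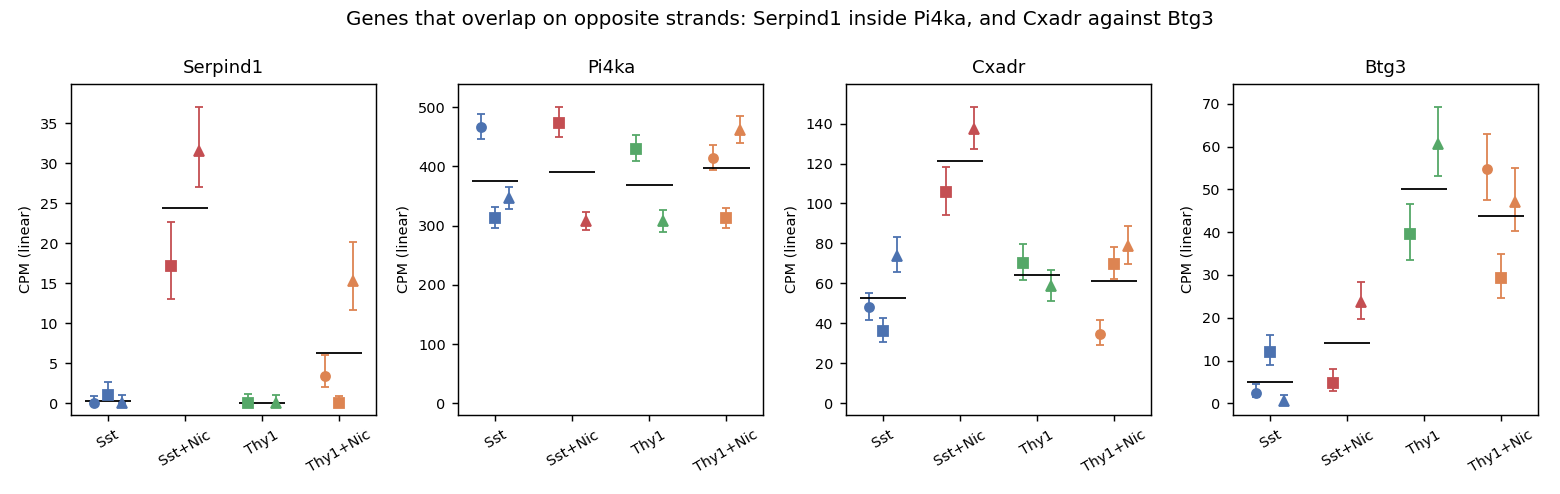
CPM (linear axes, a separate scale per gene) of Serpind1 and of Pi4ka, the gene it lies in, and of Cxadr and of Btg3. Cxadr shares exonic bases with Btg3 in GENCODE but not in RefSeq. Symbols are replicates 1 (circle), 2 (square) and 3 (triangle), bars 95% Wilson intervals and black lines group means. Pi4ka lies between 307 and 474 CPM in every group while Serpind1 reaches 17.1 and 31.6 in Sst+Nic, and Btg3 is at 23.6 or less in Sst-neurons and at 29.3 or more in Thy1-neurons.

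Across the 5 genes, the levels in Sst+Nic per kb of exon were 16.4 ± 3.03 CPM per kb for Cxadr, 12.0 ± 0.150 for Ehd1, 11.1 ± 4.65 for Serpind1, 3.29 ± 2.14 for Igsf11 and 0.640 ± 0.033 for Parp14 (SD, n = 2). The libraries of Serpind1 overlapped with those of Cxadr and of Ehd1, and Parp14 was the lowest. In Sst the order was Cxadr with 7.12 ± 2.61 CPM per kb and Ehd1 with 2.23 ± 0.750 (n = 3), followed by Serpind1 with 0.155 ± 0.269 and Igsf11 with 0.140 ± 0.243, which did not differ beyond their spread. Parp14 was at 0. In Thy1+Nic, Cxadr (8.25 ± 3.13) and Ehd1 (6.38 ± 1.45) again headed the order, and Serpind1 (2.86 ± 3.67) and Igsf11 (2.08 ± 2.78) overlapped.

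The nicotine effects in the 2 cell types were set side by side for the 3 genes with counts in every group. In Sst-neurons the fitted log2 fold changes, which the choice of genes fixed to be positive, were 2.21 ± 0.72 (SE) for Ehd1, 1.01 ± 0.44 for Cxadr and 4.23 ± 2.14 for Igsf11. Over all entries tested in Sst-neurons, edgeR called 0 of 6689 (0%), with 280 (4.19%) at an unadjusted p under 0.05, DESeq2 called 19 and limma voom 0. Without Sst replicate 3 the fitted value of Igsf11 was 8.71, since the other Sst libraries were at 0. With 1 library left out, that of Cxadr lay between 0.64 and 1.35, and was lowest without Sst+Nic replicate 3. The difference of the effects, Sst-neurons minus Thy1-neurons, was taken from 1 fit of all 10 libraries, not from the separate fits. It was 0.28 ± 1.00 for Ehd1, 0.97 ± 0.66 for Cxadr and 1.83 ± 2.60 for Igsf11 on the log2 scale. These differences are estimates without a test, since 1 of their terms chose the genes.

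**Figure D3:**
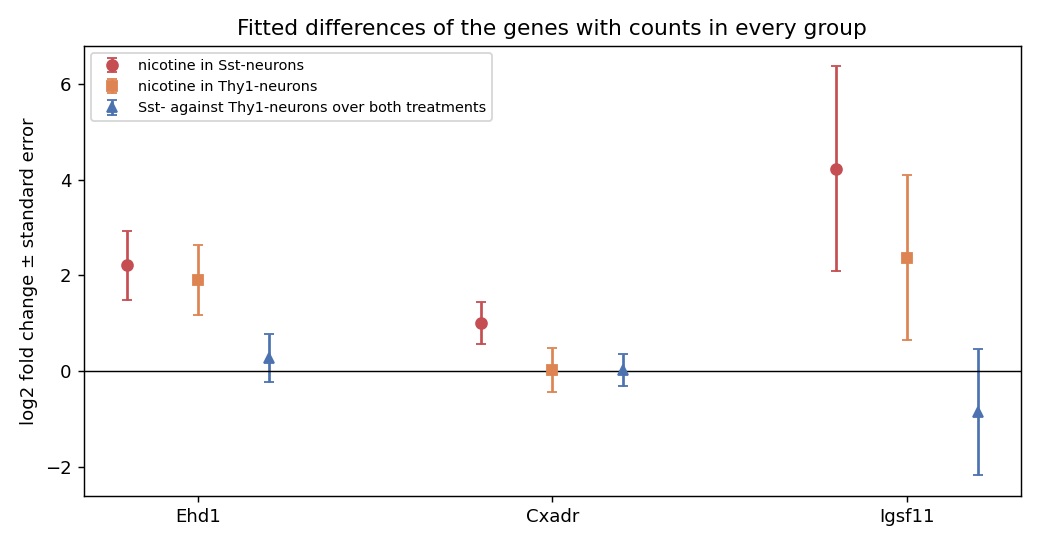
Fitted log2 fold changes with standard errors from edgeR for Ehd1, Cxadr and Igsf11: nicotine against saline in Sst-neurons (circles, the contrast used to choose the genes), nicotine against saline in Thy1-neurons (squares) and Sst- against Thy1-neurons over both treatments (triangles). The nicotine estimates of Ehd1 are 2.21 in Sst-neurons and 1.91 in Thy1-neurons, while those of Cxadr are 1.01 and 0.03.

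Between the cell types, the fitted differences averaged over saline and nicotine are given as a description with no test, since the fit includes all 5 Sst and Sst+Nic libraries that the criterion read. Sst-neurons were compared with Thy1-neurons in 1 fit of all 10 libraries, in which 408 of 8242 entries (4.95%) were called; 179 of them had the higher level in Sst-neurons and 229 in Thy1-neurons. With library totals in place of TMM normalization 420 were called, and the split was 271 to 149. The log2 fold changes were 0.28 ± 0.50 (SE) for Ehd1, 0.03 ± 0.34 for Cxadr and -0.85 ± 1.32 for Igsf11. Those of Serpind1 and Parp14 are not given, since Thy1 was at 0. That of Igsf11 was 0.13, the opposite sign, without Thy1+Nic replicate 1. In these bulk samples fewer cells of a type and less RNA per cell cannot be told apart.

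The share of entries that met the criterion was not the same in both directions. By counts, every Sst+Nic library was above every Sst library in 951 of 6689 entries (14.2%) and below in 259 (3.87%). In Thy1-neurons every Thy1+Nic library was above every Thy1 library in 508 of 6048 entries (8.40%) and below in 711 (11.8%). By CPM the numbers were 1071 above and 320 below in Sst-neurons, and 434 and 829 in Thy1-neurons; by TMM-scaled CPM 841 were above in Sst-neurons. All 5 genes met the criterion by CPM and by TMM-scaled CPM as well as by counts. The smallest ratio was that of Cxadr, with 78.5 TMM-scaled CPM in the lower Sst+Nic library against 69.8 in the highest Sst library.

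**Figure D4:**
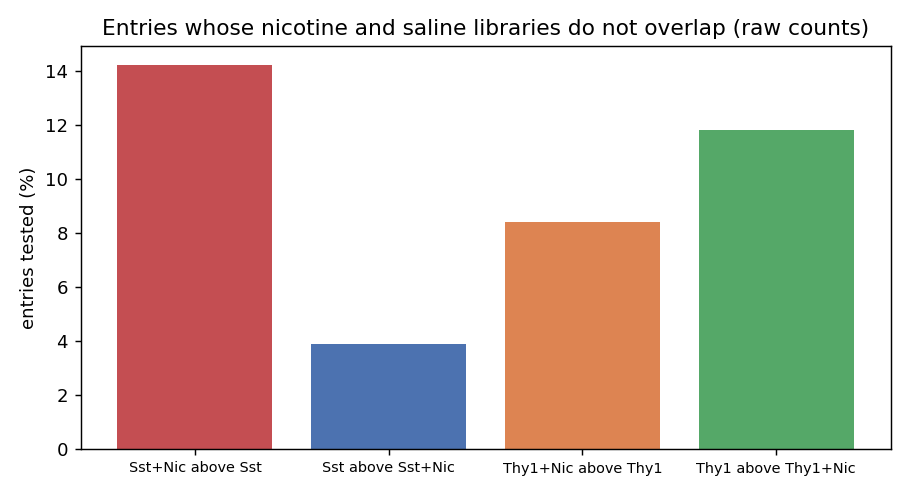
Share of the entries tested (percent, axis from 0) in which the counts of all nicotine libraries are above, or all below, those of the saline libraries, for Sst-neurons (6689 entries) and Thy1-neurons (6048 entries). The share is 14.2% for nicotine above saline in Sst-neurons against 3.87% for the reverse, and 8.40% against 11.8% in Thy1-neurons.

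Genes of related function from lists of 4 themes, restricted to position-checked entries, were read beside the 5. The lists were chosen with earlier results known, and Cd47, Boc and Vps8 are named after their values were seen. Of the 3 other interferon-linked genes, the ubiquitin ligase Dtx3l, its partner Parp9 and the receptor chaperone Rtp4, 0 met the criterion, and 2 of the 3 had enough counts in Sst-neurons to be tested, so that this count is no departure from the 8.40% of position-checked entries tested. Parp9 had 20.1, 0 and 0 CPM in Sst and 0 in both Sst+Nic libraries, in which Parp14 had its counts. In Thy1 it had 0 and 0.275 CPM, and in Thy1+Nic 3.17, 0 and 8.25 CPM. Rtp4 had 23.6, 51.8 and 170 CPM in Sst, 66.9 and 89.2 in Sst+Nic, 0.573 and 0 in Thy1, and 2.88, 0 and 16.2 in Thy1+Nic. It was the 1 of these 3 genes called between cell types, where 4.95% of all entries were, and was higher in Sst-neurons than in Thy1-neurons (log2 fold change 5.57 ± 1.16 SE, edgeR adjusted p = 0.0138), and its Sst and Sst+Nic libraries overlapped.

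Of 10 other adhesion molecules with immunoglobulin domains, 1 met the criterion, where 8.40% of position-checked entries tested did. This was Cd47, a receptor for signal regulatory proteins, with 416, 414 and 354 CPM in Sst against 729 and 495 in Sst+Nic. Boc, a co-receptor of hedgehog signalling, was lower in both Sst+Nic libraries than in every Sst library (3.87% of all entries by counts), with 40.0, 78.3 and 138 CPM in Sst against 26.8 and 5.74 in Sst+Nic. The median log2 fold change of the 10 for nicotine was 0.09 in Sst-neurons, where the median of all entries was 0.05, and, over the 9 tested, -0.18 in Thy1-neurons, where that of all entries was -0.0030. Between cell types 1 of the 10 was called, where 4.95% of all entries were. This was Lsamp, a membrane-anchored adhesion molecule of limbic and cortical neurons. It had 383 ± 205 CPM in Sst against 79.9 ± 9.30 in Thy1, and 516 ± 245 in Sst+Nic against 111 ± 61.4 in Thy1+Nic. Over both treatments its log2 fold change was 1.86 ± 0.35 SE (edgeR adjusted p = 0.00837). Of 9 other genes of endocytosis and endosomal sorting, 1 met the criterion by counts, where 8.40% of position-checked entries tested did, and 0 by CPM, where 12.1% did. This was Vps8, a subunit of an endosomal tethering complex, with 74.8, 10.97 and 88.0 CPM in Sst against 138 and 83.4 in Sst+Nic. Between cell types 0 of the 9 were called by edgeR, where 4.95% of all entries were, and 0 had an unadjusted p under 0.05, where 21.6% did. The median log2 fold change of these 9 for nicotine was 0.08 in Sst-neurons and 0.05 in Thy1-neurons.

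Of 9 other genes of coagulation and plasma protease control, 2 had enough counts in Sst-neurons to be tested and 0 met the criterion, which at 8.40% of position-checked entries is no departure. F7 and F10, of the clotting cascade, had 0 counts in 8 and 9 of the 10 libraries. The called gene was Masp1, a protease of the lectin pathway of complement, with 146, 62.0 and 61.3 CPM in Sst, 122 and 62.5 in Sst+Nic, 0 and 3.29 in Thy1, and 0.288, 0 and 0 in Thy1+Nic. It was called higher in Sst-neurons than in Thy1-neurons (edgeR adjusted p = 8.07e-04), as 1 of the 2 of these genes tested between cell types, where 4.95% of all entries were called.

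The entries whose pattern over the 10 libraries was most like that of each gene were ranked by Pearson's r of log2(CPM + 1) among 534 position-checked entries. The libraries share their group and depth, and the 5 genes were chosen on 5 of these libraries, so r is a description. Ehd1 was most like Serpind1 (r = 0.881), and Serpind1 was most like Evi5l, a GTPase-activating protein for Rab proteins (r = 0.897; 0.817 with Ehd1). Evi5l had 3.23, 0.255 and 0.270 CPM in Sst, 8.23 and 12.5 in Sst+Nic, 0.573 and 0.275 in Thy1, and 2.59, 0 and 7.36 in Thy1+Nic. Like Serpind1, it was at 0 in Thy1+Nic replicate 2. Igsf11 was most like Neat1, the long noncoding RNA of nuclear paraspeckles (r = 0.909), and Prodh, proline dehydrogenase (r = 0.882). Neat1 had 0 in all 3 Sst libraries, 16.8 and 28.5 CPM in Sst+Nic, 0.286 and 0.824 in Thy1, and 30.8, 7.09 and 0 in Thy1+Nic, with its highest value in the same Thy1+Nic library as Igsf11.

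Cxadr was most like Pak2, a protein kinase activated by small GTPases (r = 0.778), and Grin2a, a subunit of the NMDA receptor (r = 0.748). Parp14 was most like Cggbp1, a DNA-binding protein (r = 0.870), and B3gnt5, a glycosyltransferase of glycolipids (r = 0.861). Cggbp1 had 227, 183 and 138 CPM in Sst and 350 and 326 in Sst+Nic, and lay between 117 and 158 in the 5 Thy1-neuron libraries. B3gnt5 had 0, 0.255 and 3.78 CPM in Sst and 38.1 and 5.33 in Sst+Nic, with 0.286 CPM or less in all Thy1-neuron libraries.

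For all 10 nearest neighbours with counts, 1 on each side of each gene, the Sst and Sst+Nic libraries overlapped. Atg2a, an autophagy gene 14.6 kb from Ehd1, had 34.8 ± 8.76 CPM in Sst and 28.6 ± 11.4 in Sst+Nic, and Men1, the gene of the tumour suppressor menin, had 96.5 ± 27.5 and 100 ± 16.6. Hspbap1, 3.43 kb from Parp14, had 21.0 ± 23.7 CPM in Sst and 29.6 ± 7.63 in Sst+Nic. Snap29, a membrane fusion protein gene 62.4 kb from Serpind1, had 41.9 ± 31.8 and 72.7 ± 7.69 CPM.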

How the data were processed

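The authors aligned paired-end reads of amplified cDNA to GRCm38 with TopHat and deposited counts, the number of fragments per gene entry (35129 entries), without normalization. TopHat and HTSeq are named in the submitters' processing notes, and the strand setting and annotation of counting are not given in the sources used here. The amplification carries no molecular identifiers. Counts were divided by library totals (2915738 to 4878326) to give CPM.

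Groups came from the sample labels. The members and gene lists were chosen with earlier results of these data known. Named genes were the 5 members, the 2 entries most like each, overlapping or nearest expressed neighbours, and called or example genes of 4 lists. Entry names were checked by stretch along each chromosome, on a subset of genes, against the study's group values for Sst. These served only to decide which names could be read. Positions came from RefSeq, and spans and exons from GENCODE M21.

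Nicotine in Thy1-neurons (the test given for Ehd1 and Cxadr), nicotine in Sst-neurons and cell type (both without a test of the members) were fitted with the quasi-likelihood test of edgeR 4.0.16 in R 4.3.3, with TMM and filterByExpr (minimum count 10), and Benjamini-Hochberg adjustment over all entries. All 5 members passed the filter in Sst-neurons and between cell types, and 4 in Thy1-neurons, where Parp14 had no count. EBSeq, which the study used, was not run. Standard errors were derived from the fold change and test statistic. The fits were tested on simulated data. Alternatives used DESeq2 1.42.0, limma 3.58.1, other normalizations and filters, a replicate block, all libraries together, and each library left out. Wilson intervals are at 95%.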

Additional observations from a re-analysis of the deposited data

How the results depend on the processing

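The number of entries called for nicotine in Thy1-neurons was 0 with edgeR and became 14 with DESeq2, 13 with no filter and 7 when 10 counts in 1 library were required. In Sst-neurons it was 0 and became 19 with DESeq2 and 8 with no filter. Between cell types it was 408 and became 877 with DESeq2, 689 with limma voom, 727 with no filter and 766 when 10 counts were required; with 1 library left out it lay between 326 and 432. Leaving out 1 library gave 0 in both nicotine comparisons; a group left with 1 library is then assumed to vary like the other. Library totals without TMM moved the median log2 fold change of all entries from -0.0030 to -0.11 in Thy1-neurons, from 0.05 to 0.27 in Sst-neurons and from 0.08 to 0.40 between cell types. The causes were not tested.

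No alternative called Ehd1 or Cxadr in Thy1-neurons, and Ehd1 kept its direction there under all 14. Cxadr changed sign in Thy1-neurons with limma voom (-0.062), library totals (-0.075), and without Thy1+Nic replicate 2 (-0.14) or 3 (-0.11), and between cell types without Sst replicate 3 (-0.14), Sst+Nic replicate 3 (-0.17) or Thy1+Nic replicate 1 (-0.14); with 1 library left out its highest values were 0.29 and 0.18. Igsf11 changed sign between cell types without Thy1+Nic replicate 1 (0.13), and without Sst replicate 3 it was -2.97. With the replicate block, Igsf11 fell to -0.19 in Thy1-neurons, and 377 entries were called between cell types. The replicate numbers only name the mice: same-numbered libraries of different groups correlated at -0.081 to 0.029 (13 pairs), and 0 of 10 libraries correlated best with their own number. Leaving out each Thy1+Nic library, an alternative chosen after seeing the data, gave ratios of 3.70 to 22.2 for Serpind1 in Thy1+Nic against the floor of Thy1. Parp14, Igsf11 and Serpind1 had low counts.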
